A study of Mus musculus with 2 samples.

Results

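The genes described here, grouped as macrophage CC chemokines, are Ccl2, Ccl6, Ccl7, Ccl8, Ccl9, Ccl12 and Ccl24. Not all of these 7 genes were highest in macrophages. They were taken by symbol, with no limit on their values but with earlier results of these data known, and were 7 of the 32285 genes counted. CD45+ leukocytes were sorted from the left flank tumor of C57BL/6 mice that carried MC38, a mouse colon cancer cell line, under the skin of both flanks, and were sequenced as single cells with 10x Genomics droplets, a method that counts transcript molecules by unique molecular identifiers (UMIs) near their 3′ ends. In both groups the right tumor was treated with microwave ablation (MWA) at about 300 mm3, and the left tumor, which was not ablated, was collected 8 days later. The MWA plus TIGIT group also received an antibody that blocks the inhibitory receptor TIGIT, injected 3 times at intervals of 3 days from day 1 after MWA according to the sample labels, whereas the study's methods state another number of injections. Each group was 1 library, the number of mice behind a library was not given in the sources used here, and no library of an untreated mouse was analysed here, so the comparison is of antibody on top of MWA and not of MWA itself.

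CC chemokines are small secreted proteins that direct the movement of leukocytes through G protein-coupled receptors. Ccl2, Ccl7 and Ccl12 are ligands of Ccr2 and bring monocytes out of the bone marrow and into tissue, where many become macrophages. Ccl8 of the mouse acts mainly on Ccr8, Ccl6 and Ccl9 act on Ccr1, and Ccl24 is an eotaxin that acts on Ccr3 of eosinophils. Tumor-associated macrophages (TAMs) are a known source of several of them and themselves arise from monocytes that Ccr2 ligands attract.

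The MWA library held 66152465 UMIs in 10217 barcodes, of which 9231 cells were kept, and the MWA plus TIGIT library held 78751205 UMIs in 10190 barcodes, of which 9127 were kept. The MWA plus TIGIT library was the deeper one, with a median of 6326 UMIs per kept cell against 5342, and 37 barcode sequences occurred in both libraries. Ptprc, which encodes CD45, was at 461 and 480 UMIs per 1000000 UMIs (CPM) over all kept cells of the MWA and the MWA plus TIGIT library, while the summed level of 5 epithelial markers was 2.24 and 2.07 CPM. The study's methods name male mice, yet UMIs of Xist, which is transcribed from the inactive X chromosome of females, were found in 79.8% and 80.9% of the barcodes, and Ddx3y and Eif2s3y of the Y chromosome had 0 UMIs in both libraries.

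Cells were clustered with all chemokines and chemokine receptors left out of the clustering features, and clusters were named by markers that include none of them, so that the levels below played no part in how the classes were drawn. There were 3885 TAM-like cells in the MWA library and 4032 in the MWA plus TIGIT library, which is 42.1% and 44.2% of the kept cells. C1qa, a complement gene typical of macrophages, was at 5104 and 5677 CPM in them. They fell into 6 classes. One was led by Slc7a2, Ltc4s and Arg1 (Slc7a2-led, 911 and 973 cells). The hypoxic class (716 and 753 cells) expressed Hilpda and Ndrg1 and was also led by the heat shock genes Hspb1, Hspa1a and Hspa1b. Its leading genes held as many markers of an Arg1 TAM list (Mmp12 and Il7r) as of the hypoxic list. The list with the higher mean marker level relative to the myeloid clusters gave the name. A class led by genes of MHC class II (H2-Eb1-led) had 705 and 746 cells, and a class with high Selenop and Mrc1 had 708 and 645 cells. Cycling TAM-like cells numbered 675 and 710, and interferon-induced TAM-like cells 170 and 205. Monocyte-like cells formed a class led by Chil3, Plac8 and Ly6c2 (Chil3-led, 377 and 464 cells) and a class led by Hp, Plac8 and Ifitm6 (Hp-led, 115 and 110 cells), and neutrophil-like cells numbered 93 and 87.

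Of the 7 genes, 6 lie in 2 groups on mouse chromosome 11 in the build GRCm38. Ccl2 (chr11:82035571-82037453), Ccl7 (chr11:82045712-82047525), Ccl12 (chr11:82101845-82103400) and Ccl8 (chr11:82115185-82116799) lie in this order on the plus strand, and Ccl12 and Ccl8 are 11785 bases apart. Ccl9 (chr11:83572919-83578636) and Ccl6 (chr11:83587882-83593087) lie on the minus strand, 9246 bases apart, and Ccl24 lies alone on chromosome 5 (chr5:135569937-135573049, minus strand). All 7 are annotated as protein-coding genes. The longest exact stretch shared by annotated transcripts of 2 members was 25 bases, between Ccl6 and Ccl9, and was 23 bases between Ccl2 and Ccl7.

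The promoters of neighbors are shown because Ccl12 and Ccl8, though close together, differed in opposite directions between the libraries. Those of Ccl9 and Ccl6 are shown because cells with Ccl6 held Ccl9 more often than cells without. RefSeq promoter windows of GRCm38.p6, from 250 bases before to 50 bases after the start site, were matched for 4 of the 7 genes. Capitals mark motif matches.
Ccl12 (chr11:82101595-82101894, plus strand): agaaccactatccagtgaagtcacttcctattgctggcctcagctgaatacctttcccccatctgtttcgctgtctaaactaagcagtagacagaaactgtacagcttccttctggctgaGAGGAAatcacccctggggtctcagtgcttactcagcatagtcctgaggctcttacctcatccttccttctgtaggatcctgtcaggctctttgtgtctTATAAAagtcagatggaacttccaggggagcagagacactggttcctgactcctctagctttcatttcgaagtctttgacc
Ccl8 (chr11:82114935-82115234, plus strand): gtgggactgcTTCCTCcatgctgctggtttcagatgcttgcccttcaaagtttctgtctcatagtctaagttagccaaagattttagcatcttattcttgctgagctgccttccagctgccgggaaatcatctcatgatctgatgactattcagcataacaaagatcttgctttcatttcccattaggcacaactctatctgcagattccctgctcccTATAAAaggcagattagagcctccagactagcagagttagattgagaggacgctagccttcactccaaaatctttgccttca
Ccl9 (chr11:83578587-83578886, minus strand): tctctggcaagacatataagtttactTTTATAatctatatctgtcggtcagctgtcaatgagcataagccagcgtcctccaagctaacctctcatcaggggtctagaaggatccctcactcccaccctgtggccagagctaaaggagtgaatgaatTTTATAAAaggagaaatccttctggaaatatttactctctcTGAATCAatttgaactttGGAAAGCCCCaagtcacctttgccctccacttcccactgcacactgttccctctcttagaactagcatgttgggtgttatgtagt
Ccl6 (chr11:83593038-83593337, minus strand): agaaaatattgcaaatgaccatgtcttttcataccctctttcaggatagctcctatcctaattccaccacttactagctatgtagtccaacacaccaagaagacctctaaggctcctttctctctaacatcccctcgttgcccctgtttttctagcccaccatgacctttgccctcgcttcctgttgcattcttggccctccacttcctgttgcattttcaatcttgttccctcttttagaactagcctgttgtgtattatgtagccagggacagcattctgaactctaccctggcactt

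The Ccl12 and Ccl8 windows each held 1 TATAAA, the TATA box, with its first base at −31 and −32 from the start site, and each held 1 GAGGAA, a core of PU.1 sites, at −130 in Ccl12 and, on the reverse strand, at −240 in Ccl8. The Ccl9 window held TATAAA on the strand of the gene at −92, overlapping a match on the other strand at −94, a further match on the other strand at −224, and held TGANTCA (AP-1) at −53 and an NF-kB motif match, GGAAAGCCCC, on the reverse strand at −35. No match to any of the 7 motifs searched was in the Ccl6 window, and the other motifs were TTCNNNGAA (STAT), TTGCNNAA (C/EBP) and an interferon response motif. Over all 32851 promoter windows, searched on both strands, TATAAA was in 13.6%, GAGGAA in 28.3%, TGANTCA in 7.81%, the NF-kB motif in 50.8%, TTCNNNGAA in 8.30%, the interferon response motif in 3.44% and TTGCNNAA in 10.8%. These matches are letters found in the windows, and no binding was measured.

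To find which cells held the transcripts, the UMIs of each gene were divided among the classes. Of the Ccl8 UMIs, 96.5% (MWA library) and 96.8% (MWA plus TIGIT library) were in TAM-like cells, with 96.4% and 95.7% for Ccl12 and 94.7% and 91.0% for Ccl7. For Ccl2 the share was 89.6% and 86.4%, for Ccl9 86% and 87.6%, and for Ccl6 78.5% and 82.8%. Ccl24 stood apart, with 50.5% and 58.5% of its UMIs in TAM-like cells and 46.2% and 39.0% in monocyte-like cells, which were 5.3% and 6.3% of the kept cells.

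T cell-like and NK cell-like cells, which should lack these genes, gave the level of free RNA. Their CPM was between 2.21% and 3.81% of that of TAM-like cells for every member and library except Ccl24 in the MWA library (8.39%). For comparison, that share was 2.15% and 1.91% for C1qa. Ccl2 was at 22.7 and 17.7 CPM in these lymphocytes and Ccl8 at 5.43 and 9.34 CPM. Levels near these values in other cells were read as background.

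**Figure D1:**
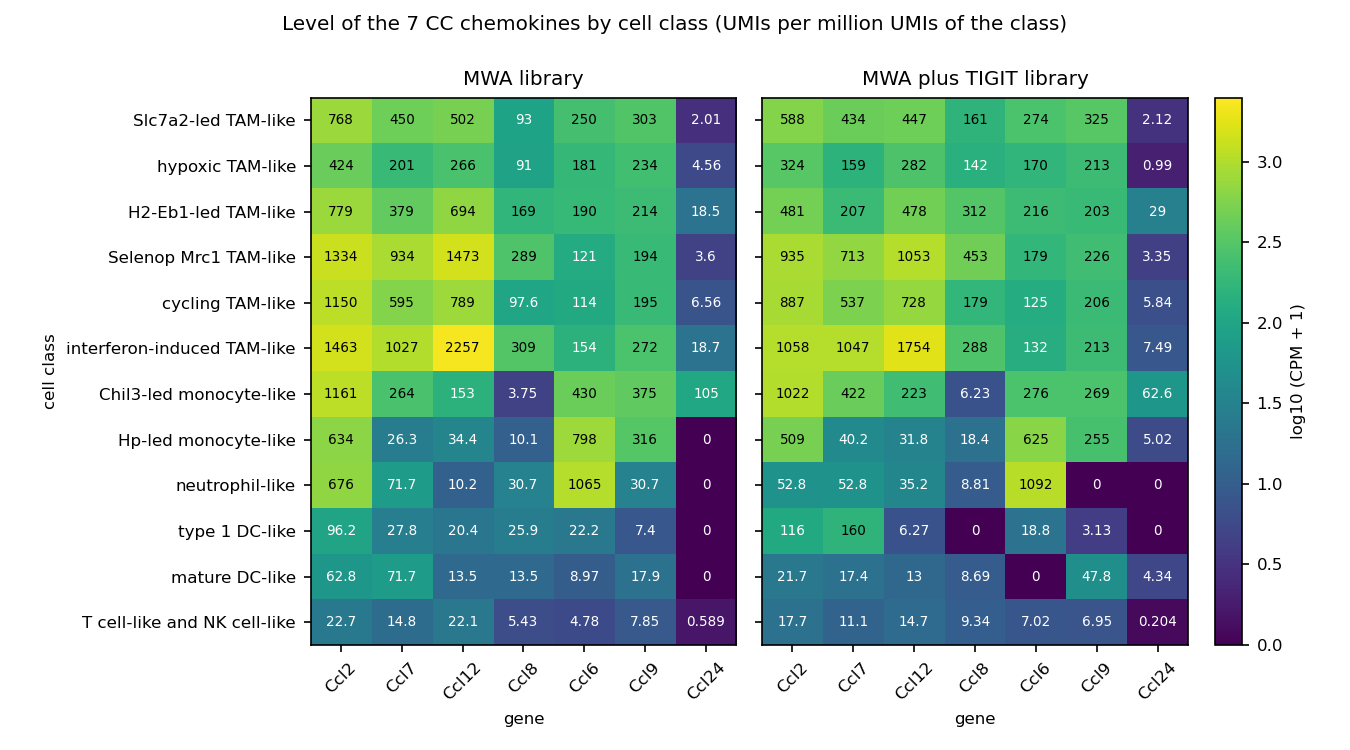
Level of each chemokine (columns) in each cell class (rows) of the MWA library (left) and the MWA plus TIGIT library (right), in CPM of the class, with color on a log10 scale of CPM + 1. Ccl2, Ccl7 and Ccl12 were highest in interferon-induced TAM-like cells in both libraries, while Ccl6 was highest in neutrophil-like cells (overlapping Hp-led monocyte-like cells in the MWA library) and Ccl24 in Chil3-led monocyte-like cells.

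The ligands of Ccr2 were highest in interferon-induced, Selenop Mrc1 and cycling TAM-like cells. Ccl12 was at 2257 CPM in interferon-induced TAM-like cells of the MWA library and at 1754 CPM in the MWA plus TIGIT library, followed by Selenop Mrc1 TAM-like cells at 1473 and 1053 CPM. Hypoxic TAM-like cells had the lowest Ccl12 of the TAM-like classes, 266 and 282 CPM. Ccl7 had the same 3 leading classes, with 1027 and 1047 CPM in interferon-induced, 934 and 713 CPM in Selenop Mrc1 and 595 and 537 CPM in cycling TAM-like cells. Counting intervals of neighbors in these leading places did not overlap for either gene. These intervals, like all below, are exact 95% intervals of counting error only. They hold nothing of the variation between cells, mice, sorts or libraries, so they are too narrow where few cells hold many UMIs. In interferon-induced TAM-like cells of the MWA library, 1 of 170 cells held 113 of the 1431 Ccl7 UMIs.

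Ccl2 differed from the other ligands of Ccr2 in being higher in monocyte-like cells than in TAM-like cells as a whole, in both libraries. It was at 1463 and 1058 CPM in interferon-induced TAM-like cells and at 1161 and 1022 CPM in Chil3-led monocyte-like cells, and in the MWA plus TIGIT library the intervals of these classes overlapped. Hypoxic TAM-like cells, at 424 and 324 CPM, were again the lowest of the TAM-like classes. Over all cells of each kind, TAM-like cells had 0.896 times the Ccl2 level of monocyte-like cells in the MWA library and 0.720 times in the MWA plus TIGIT library. This ratio was 2.54 and 1.24 for Ccl7 and 6.34 and 3.37 for Ccl12. In the MWA plus TIGIT library Ccl7 was at 422 CPM in Chil3-led monocyte-like cells, overlapping Slc7a2-led TAM-like cells at 434 CPM.

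Ccl8 was the most macrophage-restricted member by this ratio. It was at 154 CPM in TAM-like cells and 4.95 CPM in monocyte-like cells of the MWA library, a ratio of 31.1 (18.2 to 58.4), and at 245 and 7.93 CPM in the MWA plus TIGIT library, a ratio of 30.9 (22.1 to 44.6). The monocyte-like values were near the level in T cell-like and NK cell-like cells, so both ratios rest on background in their lower term. In the MWA library 3 of 7 members, Ccl7, Ccl8 and Ccl12, were at least 2-fold higher in TAM-like than in monocyte-like cells, against 5.39% of 2655 genes, and 2 members, Ccl6 and Ccl24, were at least 2-fold lower, against 4.52%. In the MWA plus TIGIT library the members past that limit were Ccl8 and Ccl12 on the higher side (4.47% of 2728 genes) and Ccl24 on the lower side (3.37%).

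Among TAM-like cells, Ccl8 was highest in the interferon-induced and Selenop Mrc1 classes of the MWA library, at 309 and 289 CPM with overlapping intervals, and in Selenop Mrc1 cells of the MWA plus TIGIT library at 453 CPM. Slc7a2-led cells, at 93.0 and 161 CPM, and hypoxic cells, at 91.0 and 142 CPM, were lowest in both libraries, overlapping cycling cells (97.6 CPM) in the MWA library. The genes with the cell class profile most like that of Ccl8 were Gas6, a ligand of receptors that take up dead cells (Pearson r = 0.87 and 0.94 in the MWA and MWA plus TIGIT libraries), Mrc1, the mannose receptor (0.86 and 0.92), and Siglec1, a sialic acid receptor of macrophages (0.86 and 0.92). Each r is over 13 clusters of the same library among 5008 genes, the clusters share their library and its free RNA, and the values are a description.

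Ccl6 and Ccl9, the ligands of Ccr1, followed another order. Ccl6 was at 1065 and 1092 CPM in neutrophil-like cells, at 798 and 625 CPM in Hp-led and at 430 and 276 CPM in Chil3-led monocyte-like cells, and the neutrophil-like and Hp-led intervals overlapped in the MWA library. Slc7a2-led cells had the highest Ccl6 of the TAM-like classes, 250 and 274 CPM, and in the MWA plus TIGIT library this overlapped the Chil3-led value. The neutrophil-like value rests on 104 and 124 UMIs. Monocyte-like cells had 2.94 times (2.77 to 3.13) the Ccl6 level of TAM-like cells in the MWA library and 1.68 times (1.59 to 1.78) in the MWA plus TIGIT library.

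Ccl9 varied less among the TAM-like and monocyte-like classes, from 194 CPM in Selenop Mrc1 to 375 CPM in Chil3-led cells of the MWA library, where the intervals of Chil3-led, Hp-led (316 CPM) and Slc7a2-led cells (303 CPM) overlapped from one to the next. In the MWA plus TIGIT library Slc7a2-led cells led with 325 CPM. Neutrophil-like cells were outside this range, with 3 and 0 Ccl9 UMIs. The profile of Ccl6 was most like those of Plaur (r = 0.98 and 0.98), the urokinase receptor, and Cebpb (0.98 and 0.96), a transcription factor of myeloid cells, and that of Ccl9 most like that of Nupr1 (0.97 and 0.97), a gene induced by stress.

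Ccl24 was at 105 CPM in Chil3-led monocyte-like cells of the MWA library and 62.6 CPM in the MWA plus TIGIT library, at 18.7 and 7.49 CPM in interferon-induced and 18.5 and 29 CPM in H2-Eb1-led TAM-like cells, and under 10 CPM in Slc7a2-led, hypoxic, Selenop Mrc1 and cycling TAM-like cells. Hp-led monocyte-like cells had 0 and 3 UMIs, so nearly all monocyte-like Ccl24 transcripts lay in the Chil3-led class. Few cells carried them. In Chil3-led cells the highest cell held 61 of 223 UMIs in the MWA library and 63 of 231 in the MWA plus TIGIT library, and 7 and 5 cells had at least 10 UMIs.

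The comparison of MWA plus TIGIT with MWA asks how the added antibody was related to chemokine transcripts in the tumor that was not ablated. With 1 library per group no test can be made, and a gene was counted as different where the libraries differed by more than 1.5-fold. In all TAM-like cells 1 of the 6 members with at least 50 CPM, Ccl8, passed that limit, against 0.434% of 2533 genes (7 higher and 4 lower in MWA plus TIGIT).

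Ccl8 was at 154 CPM (5348 UMIs) in the MWA library and 245 CPM (10914 UMIs) in the MWA plus TIGIT library, a log2 ratio of 0.67 (0.62 to 0.72). It was the 5th highest of the 2533 ratios. Slc7a2, an arginine transporter, was higher still with a log2 ratio of 1.03, and Igf1 and Arg1 had 0.70 and 0.65. Igf1 reached the 50 CPM needed for comparison in the MWA plus TIGIT library alone. The TAM-like cells of the MWA plus TIGIT library were deeper, with a median of 10534 UMIs against 8580, and at a matched depth of 1000 UMIs the share of cells with Ccl8 was 11.5% against 7.61%.

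The ligands of Ccr2 were lower in the MWA plus TIGIT library, each by less than 1.5-fold. Ccl2 was at 952 and 685 CPM (30490 against 33079 UMIs), or −0.48 on the log2 scale (−0.50 to −0.45) and the 7th lowest of the 2533. Ccl12 was at 831 and 662 CPM, with −0.33 (−0.35 to −0.30), and Ccl7 at 558 and 459 CPM, with −0.28 (−0.31 to −0.25). They were the 28th and 48th lowest. The median ratio over all genes compared was 0.04.

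Ccl6 and Ccl9 lay nearer to that median. Ccl6, at 170 and 193 CPM, had a log2 ratio of 0.18 (0.14 to 0.23), and Ccl9 at 231 and 239 CPM, with 0.05 (0.01 to 0.09). Ccl24 was too low to be compared with other genes, at 7.02 and 7.88 CPM (244 and 351 UMIs), and its interval on the log2 scale, −0.07 to 0.41, held 0. In the MWA plus TIGIT library 1 cell alone held 97 of the Ccl24 UMIs. When the TAM-like cells over 5000 UMIs were left out, the limit that the study's methods give, 492 and 289 cells remained, and Ccl7 and Ccl6 changed sign to log2 ratios of 0.18 and −0.22, while Ccl8 fell under 1.5-fold with 0.35.

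**Figure D2:**
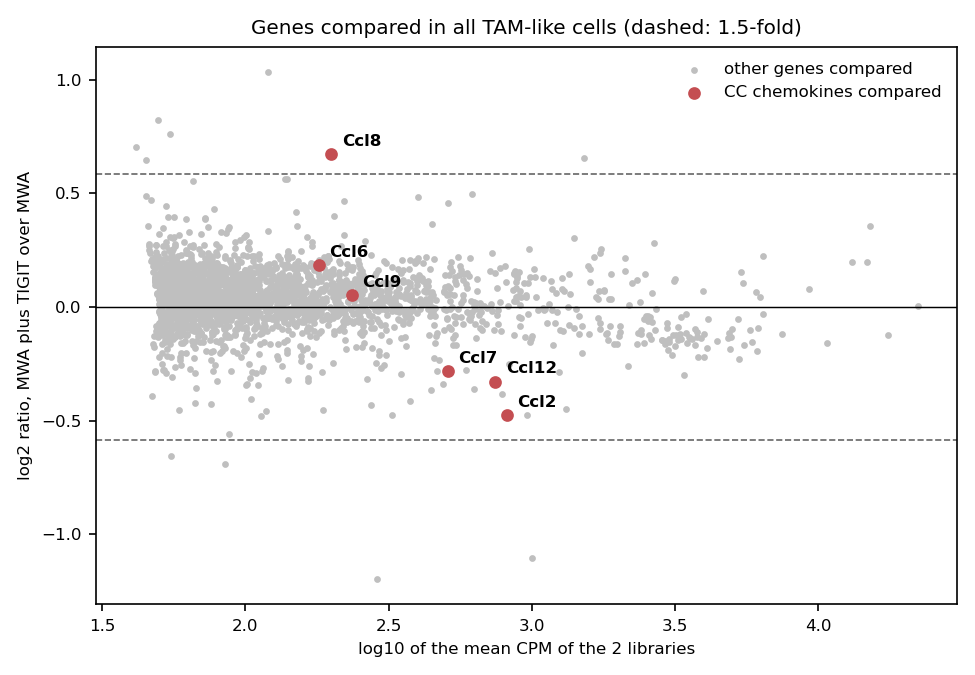
Log2 ratio of the MWA plus TIGIT over the MWA library (y axis) against the log10 of the mean CPM of both libraries (x axis) for the 2533 genes compared in all TAM-like cells, with the 6 chemokines among them in red and 1.5-fold dashed. Ccl8 lies above the upper dashed line at 0.67, Ccl2, Ccl12 and Ccl7 lie at −0.48 to −0.28, and Ccl6 and Ccl9 lie among the bulk of the genes.

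The same direction was looked for in each TAM-like class. Ccl8 was higher in the MWA plus TIGIT library by more than 1.5-fold in 5 of the 6, with log2 ratios of 0.79 in Slc7a2-led (1.1% of 2446 genes passed 1.5-fold there), 0.64 in hypoxic (1.44%), 0.88 in H2-Eb1-led (0.524%), 0.65 in Selenop Mrc1 (0.438%) and 0.87 in cycling cells (0.401%). In interferon-induced cells it was at 309 and 288 CPM with a log2 ratio of −0.10 and an interval that held 0 (−0.28 to 0.08), and none of the 6 members compared passed 1.5-fold there (2.84%). The difference between that class and the others was not tested.

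Ccl2 was lower in all 6 TAM-like classes, with log2 ratios between −0.70 in H2-Eb1-led and −0.37 in cycling cells. H2-Eb1-led cells were the class with the widest differences of these 4 chemokines. In them 3 of 6 members passed 1.5-fold, against 0.524% of 2481 genes. Their Ccl2 was at 779 and 481 CPM, their Ccl7 at 379 and 207 CPM (−0.88) and their Ccl8 at 169 and 312 CPM. Ccl12 was at 694 and 478 CPM in the same cells (−0.54). Elsewhere Ccl7 had ratios between −0.39 in Selenop Mrc1 and 0.03 in interferon-induced cells, and Ccl12 between −0.48 in Selenop Mrc1 and 0.09 in hypoxic cells. Ccl6 was at 121 and 179 CPM in Selenop Mrc1 cells (0.56), its widest difference in a TAM-like class.

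Monocyte-like cells differed from TAM-like cells in direction for several members. In the Chil3-led class 3 of 6 members passed 1.5-fold, against 1.42% of 2529 genes. Ccl7 was at 264 CPM (563 UMIs) in the MWA library and 422 CPM (1558 UMIs) in the MWA plus TIGIT library, a log2 ratio of 0.68 (0.54 to 0.82). Cells with at least 10 Ccl7 UMIs numbered 18 of 377 and 39 of 464, and the highest cell held 79 and 231 UMIs. These cell counts are not matched for depth, which was greater in the MWA plus TIGIT library. Ccl6 was at 430 and 276 CPM (−0.64) and Ccl24 at 105 and 62.6 CPM (−0.74). Ccl12 was at 153 and 223 CPM (0.54) and Ccl9 at 375 and 269 CPM (−0.48), both under the limit.

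Macrophage markers were higher in the Chil3-led cells of the MWA plus TIGIT library. Of the chemokines just named, Ccl7 and Ccl12 were higher there too, while Ccl6, Ccl9 and Ccl24 were lower. A relation between markers and chemokines was not tested. In Chil3-led cells C1qa was at 701 CPM in the MWA and 981 CPM in the MWA plus TIGIT library, C1qb at 1039 and 1321 CPM and C1qc at 547 and 688 CPM. Without the monocyte-like cells that had at least 5 UMIs of these genes, which left 360 of 492 and 373 of 574 monocyte-like cells, Ccl7 was at 247 and 364 CPM in the Chil3-led class (0.56), Ccl12 at 123 and 140 CPM (0.18), and the Ccl24 ratio changed sign to 0.32. This selection was chosen once the data were known, and its limit of 5 UMIs was not adjusted for depth. The median depth of Chil3-led cells was 5380 UMIs in the MWA and 7658 in the MWA plus TIGIT library. In Hp-led cells, where C1qa was at 115 and 88.7 CPM, none of the 3 members compared passed 1.5-fold (12.7% of 2809 genes did), and Ccl6 was at 798 and 625 CPM (−0.35).

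Ccl6 of neutrophil-like cells had a log2 ratio of 0.04 (−0.35 to 0.43), and their Ccl2 was at 676 CPM in the MWA and 52.8 CPM in the MWA plus TIGIT library. The Ccl2 value is 66 UMIs against 6, of which 1 cell held 23, and 30.8% of the 1274 genes compared passed 1.5-fold in these cells, whose median was 918 and 1142 UMIs.

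**Figure D3:**
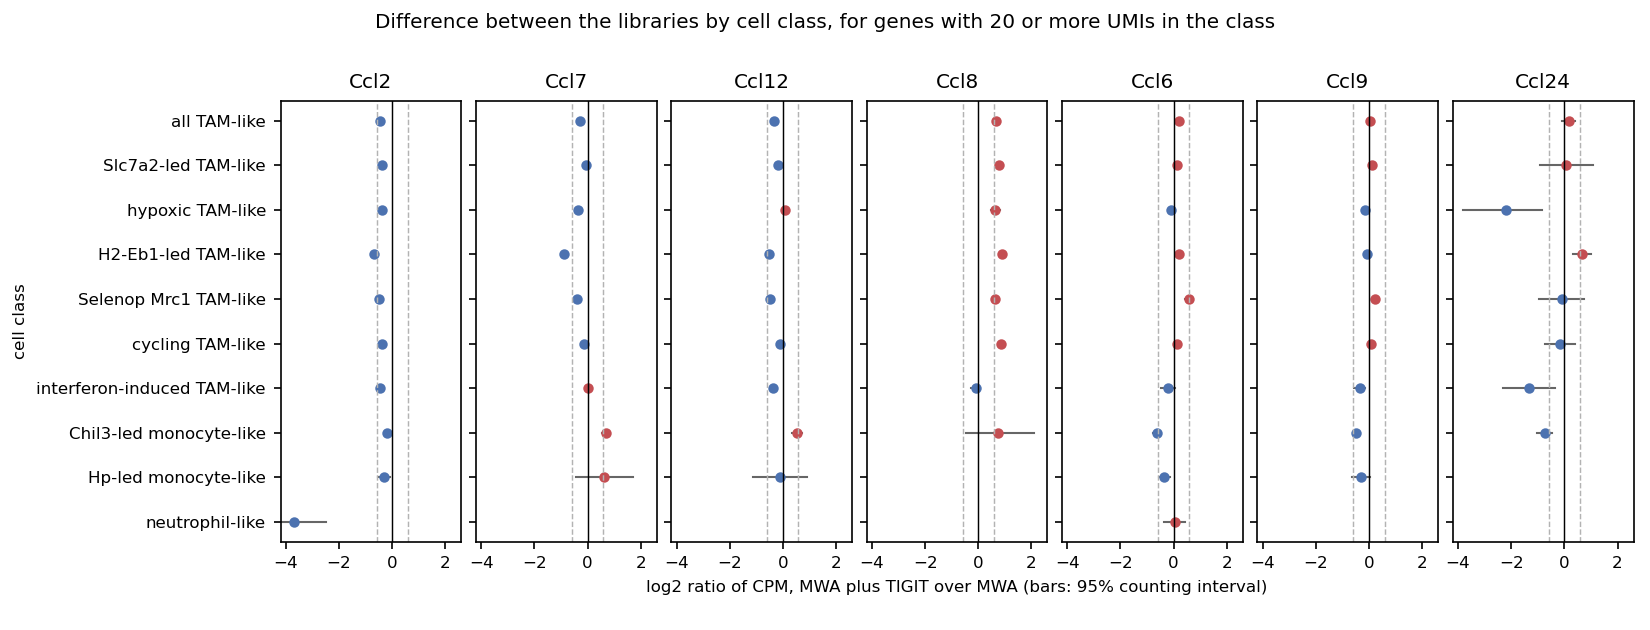
Log2 ratio of CPM, MWA plus TIGIT over MWA (x axis), of each chemokine (panels) in each class (y axis), with bars for the 95% counting interval, red points for values above 0, blue points for values below 0 and dashed lines at 1.5-fold; bars are cut at the frame and classes with under 20 UMIs are left out. Ccl2 lies below 0 in every class shown, and Ccl8 above 0 in all but interferon-induced TAM-like cells. The Chil3-led Ccl8 point rests on 8 and 23 UMIs (3.75 and 6.23 CPM), under the level in T cell-like and NK cell-like cells. Ccl7 lies below 0 in all TAM-like cells together and above 0 in both monocyte-like classes, where the Hp-led interval holds 0.

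To compare shares of cells at 1 depth, cells were thinned to 1000 UMIs each and those with at least 1 UMI of a gene were counted, a share that depends on the number of expressing cells and on transcripts per cell alike. Ccl8 was found in 7.61% (MWA library) and 11.5% (MWA plus TIGIT library) of TAM-like cells, against 0.675% and 0.964% of T cell-like and NK cell-like cells. Before thinning the shares in TAM-like cells were 23.2% and 32.0%. Ccl8 was held by a small part of the cells, and the 10% of TAM-like cells with most Ccl8 carried 87.1% and 83.0% of its UMIs. Before thinning, cells with at least 10 UMIs were 137 (3.53%) and 297 (7.37%), a count not matched for the greater depth of the MWA plus TIGIT library.

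Ccl2 was found in 40.1% and 32.8% of thinned TAM-like cells (74.6% and 71.5% before thinning), against 2.79% and 2.33% of lymphocytes. It was spread more evenly than Ccl8, with 48.2% and 50.7% of its UMIs in the top 10% of cells. Ccl7 was found in 24.0% and 20.7% of thinned cells and Ccl12 in 29.2% and 25.7%, and the top 10% of cells held 64.3% and 67.2% of the Ccl7 UMIs. For Ccl12 the unthinned shares, 58.3% and 58.1%, were nearly equal, and the difference appeared at matched depth. Ccl6 was found in 13.7% and 14.3% and Ccl9 in 20.04% and 19.5% of thinned cells, while unthinned shares were higher in the deeper library (49.6% and 57.0% for Ccl6, 68.8% and 74.1% for Ccl9). Ccl24 was found in 0.593% and 0.323%. Lymphocyte shares of these 5 genes lay between 0.029% and 2.67%. Thinning left out 8 and 4 TAM-like and 73 and 71 T cell-like and NK cell-like cells, whose median depth before thinning was 3745.5 and 3765 UMIs.

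**Figure D4:**
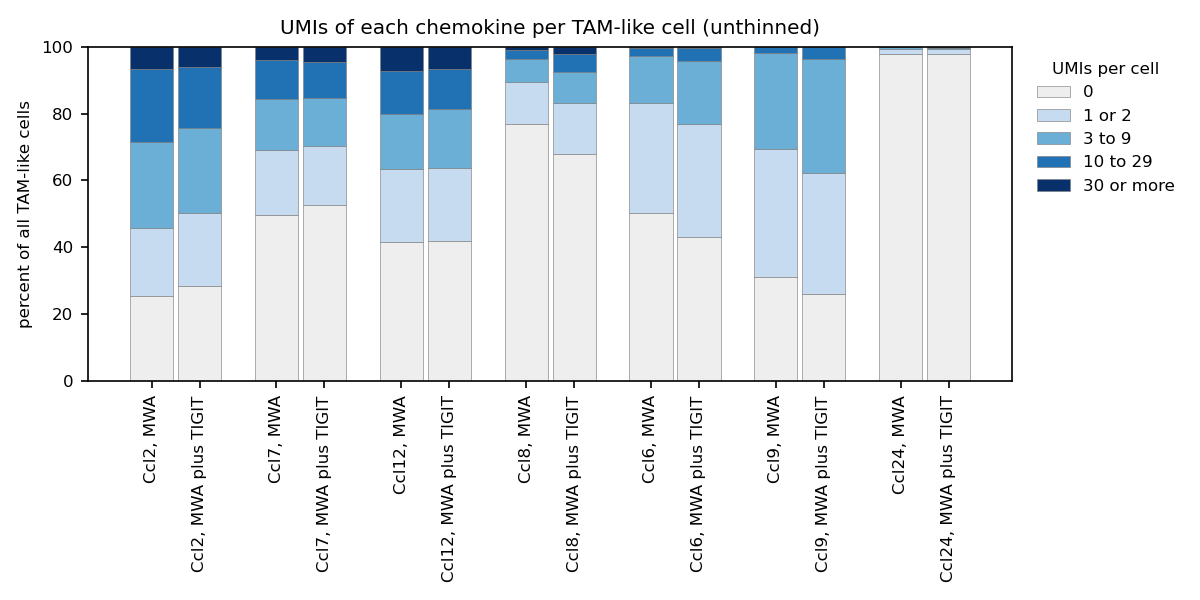
Percent of all TAM-like cells (y axis) by the number of UMIs they held of each chemokine before thinning, for each gene in the MWA and the MWA plus TIGIT library (x axis). Cells with 10 or more UMIs of Ccl8 made up 3.53% in the MWA and 7.37% in the MWA plus TIGIT library, and those of Ccl2 28.5% and 24.4%. Depth is not matched here, and the cells of the MWA plus TIGIT library were deeper.

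Each of Ccl2, Ccl7 and Ccl12 was found more often in TAM-like cells that held another of them, and likewise Ccl6 and Ccl9. After thinning, Ccl7 was found in 40.1% of the TAM-like cells with a Ccl2 UMI and 13.3% of those without in the MWA library, and in 38.5% and 12% in the MWA plus TIGIT library, a ratio of 3.02 and 3.22. Ccl12 was found 2.18 and 2.35 times as often in cells with Ccl7 as in cells without. The excess of Ccl7 among cells with Ccl2 was also seen within a single class, with ratios of 3.27 and 3.21 in Slc7a2-led and 2.35 and 2.22 in Selenop Mrc1 cells.

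Ccl9 was found 1.91 and 1.75 times as often in TAM-like cells with Ccl6 as in those without. The shares were 34.1% against 17.8% in the MWA and 30.7% against 17.6% in the MWA plus TIGIT library. Across the chromosomal groups the ratios were between 0.74 and 1.34, and Ccl6 was found 0.74 and 0.79 times as often in cells with Ccl12. Ccl8, although next to Ccl12, was linked to it less closely than Ccl7 was. Ccl12 was found 1.46 and 1.34 times as often in cells with Ccl8 over all TAM-like cells. The ratio was 1.009 and 1.004 within the Selenop Mrc1 class and 1.68 and 1.46 within the Slc7a2-led class. In Slc7a2-led cells of the MWA library it rests on 51 cells with Ccl8. Their Ccl12 share, 35.3% (22.4 to 49.9), overlapped the 21.0% (18.4 to 23.9) of cells without Ccl8. Ccl7, of the same chromosomal group, was found 1.545 and 1.495 times as often in cells with Ccl8 over all TAM-like cells. Within the Selenop Mrc1 class this ratio was 1.419 and 1.164, and within the Slc7a2-led class 1.451 and 1.066. Over all TAM-like cells, Ccl2, also of that group, was found 1.13 and 1.15 times as often in cells with Ccl8, and Ccl6, of the other group, 1.21 and 1.33 times. Over the 13 clusters Ccl7 and Ccl12 had r = 0.95 and 0.87, and Ccl8 and Ccl12 0.83 and 0.89, as a description of clusters that share a library.

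**Figure D5:**
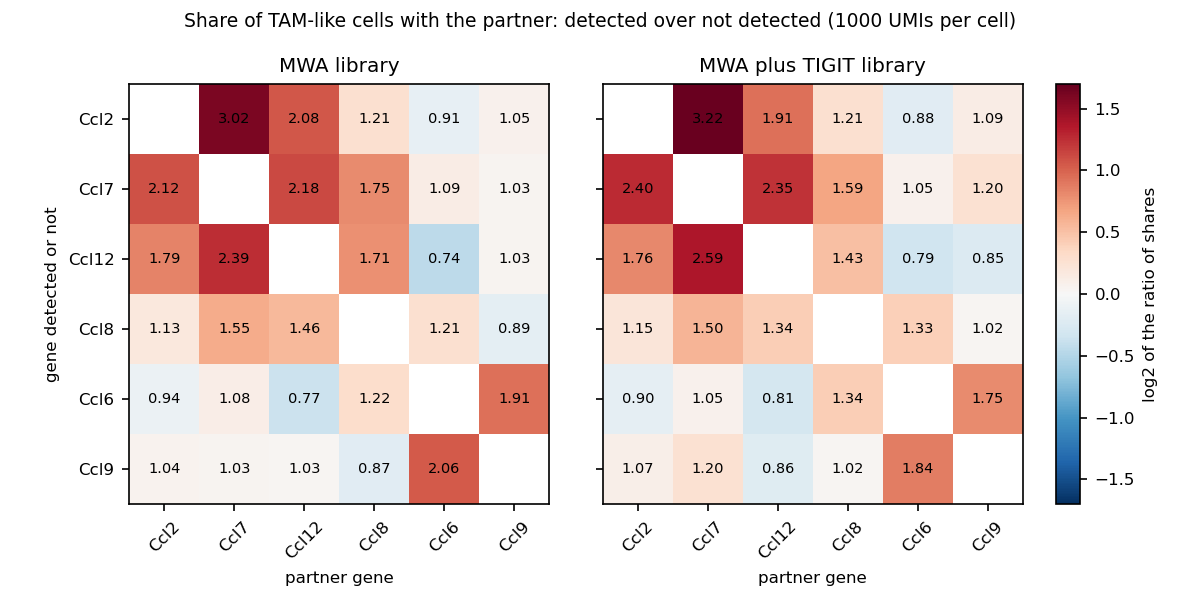
Share of TAM-like cells with the partner gene (columns) among cells with a UMI of the first gene (rows), divided by the share among cells without it, with each cell thinned to 1000 UMIs, in the MWA (left) and the MWA plus TIGIT library (right); color is the log2 of that ratio and Ccl24 is left out for its low counts. Ccl2, Ccl7 and Ccl12 form one block, with 3.02 and 3.22 for Ccl7 in cells with Ccl2, and Ccl6 and Ccl9 another, with 1.91 and 1.75.

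The receptors of these ligands were looked for in the same cells. Ccr2 was at 825 and 815 CPM in monocyte-like cells and at 292 and 291 CPM in TAM-like cells, and among TAM-like classes it ranged from 578 and 569 CPM in H2-Eb1-led to 52.6 and 61.9 CPM in hypoxic cells. Ccr1, the receptor of Ccl6 and Ccl9, was at 952 and 819 CPM in neutrophil-like cells and 174 and 173 CPM in TAM-like cells. Ccr3, the receptor of Ccl24, had 41 and 51 UMIs over all kept cells, and Ccr8, the receptor of Ccl8, 126 and 83 UMIs. Of the atypical receptors that take up chemokines, Ackr1, Ackr2 and Ackr4 had at most 2 UMIs in TAM-like cells of either library.

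Other genes of the pathway were given by lists. Of 13 other CC chemokines 3 were compared in TAM-like cells, and none passed 1.5-fold. Ccl4 was at 377 and 271 CPM (−0.47), Ccl3 at 84.7 and 69.7 CPM (−0.28) and Ccl5 at 139 and 151 CPM (0.12). Of 17 NF-kB response genes, a program that induces many chemokines, 8 were compared, none passed 1.5-fold and 1 was above 0, with a median of −0.12. Cxcl2, a chemokine for neutrophils, was at 1116 and 804 CPM (−0.47), and Zfp36, which speeds the decay of cytokine mRNAs, at 616 and 601 CPM (−0.03). Over all genes compared, 1653 of 2533 were above 0.

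Of 12 genes of STAT6 and alternative activation, 4 were compared, all above 0, and 1 passed 1.5-fold. This was Arg1, which breaks down arginine, at 1178 and 1855 CPM, and Mrc1 was at 236 and 265 CPM (0.17). Il4ra, counted among those above 0, was level at 0.0005, with an interval that held 0 (−0.063 to 0.064). The type I interferon response list of 13 genes had 12 in the table and 4 compared, which were also all above 0, with a median of 0.28 and none past 1.5-fold, and Isg15 was at 93.3 and 112 CPM (0.26). Of 13 genes of the tissue macrophage program, 10 were compared, 8 of them above 0, and Igf1 passed 1.5-fold at 31.5 and 51.3 CPM. Igf1 reached the 50 CPM needed for comparison only in the MWA plus TIGIT library, where it was higher, so its count depends on that limit. Selenop, a selenium carrier, was at 481 and 511 CPM (0.09). The median of this list was 0.12, against 0.04 over all genes compared.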

How the data were processed

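The authors made the deposited matrices of raw UMI counts per gene and cell barcode from 10x Genomics 3′ libraries (V3.1 chemistry) against mm10, with Cell Ranger 6.1.1 according to the submitters' processing notes and 4.0.0 according to the file header. No normalization was applied to them. Here, barcodes with under 200 genes or over 10% mitochondrial UMIs were removed (2 and 12 by genes, 179 and 276 by mitochondrial share), and 806 and 786 doublets were called, 0.8% per 1000 barcodes, with simulated doublets rather than the study's DoubletFinder. Integration and clustering used Seurat 5.3.0 (R 4.3.3). Clusters were named by marker lists under rules set after clusters had been seen. Those of mixed or too few markers or few UMIs stayed unnamed, and the authors' annotation was not used here.

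UMIs were summed per class and library (Python 3.11.15 with scikit-learn 1.9.0, pandas 2.3.3, scipy 1.17.1 and numpy 2.4.6) and given as CPM with exact Poisson intervals, ratios with exact conditional binomial intervals and shares with exact binomial intervals. A gene was compared where either library reached 50 CPM and both together 20 UMIs. No test between libraries was possible. TMM factors came from edgeR 4.0.16. The members, lists and thresholds were chosen with earlier results of these data known. Named genes beside the members are the receptors, the members of a list past 1.5-fold and its 2 genes with most UMIs, and those of most similar profile, by the lower of both libraries' Pearson correlations of log2(CPM + 10). Some genes that these rules name are not reported here.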

Additional observations from a re-analysis of the deposited data

Results flagged for a closer look

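For 4 of the chemokines the libraries differed in opposite directions in monocyte-like and TAM-like cells, with both counting intervals excluding 0. The share of all genes that do so was not computed, so the count does not set the chemokines apart from other genes. With 1 library per group the difference between the cell kinds was not tested. The log2 ratio of MWA plus TIGIT over MWA of Ccl7 was −0.28 in all TAM-like and 0.75 in all monocyte-like cells, a difference of 1.03. That of Ccl12 was −0.33 and 0.59, a difference of 0.91. Ccl6 had 0.18 in TAM-like and −0.62 in monocyte-like cells, a difference of −0.81, and Ccl9 had 0.05 and −0.45, a difference of −0.50. Ccl24 also had opposite signs, 0.17 in TAM-like and −0.64 in monocyte-like cells, but its TAM-like interval held 0. The TAM-like signs depend on the setting, since without cells over 5000 UMIs Ccl7 had 0.18 and Ccl6 −0.22 there, the signs of the monocyte-like cells, and Ccl9 had −0.0029 with equal weights over clusters. Macrophage markers were also higher in the Chil3-led monocyte-like cells of the MWA plus TIGIT library, and without cells that had at least 5 C1q UMIs the ratios in all monocyte-like cells were 0.61 for Ccl7, 0.22 for Ccl12, −0.61 for Ccl6 and −0.55 for Ccl9. Their part in the differences was not tested beyond this, and the limit of 5 UMIs was not adjusted for depth.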

How the results depend on the processing

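Each value in all TAM-like cells was computed under 9 alternatives. Over them the log2 ratio of Ccl2 lay between −0.51 and −0.21, that of Ccl12 between −0.46 and −0.29 and that of Ccl8 between 0.35 and 0.78, all keeping their sign, while Ccl7 (−0.32 to 0.18), Ccl6 (−0.22 to 0.23), Ccl9 (−0.0029 to 0.09) and Ccl24 (−0.74 to 0.33) did not. Without cells over 5000 UMIs, which removed most TAM-like cells, Ccl2 had −0.21, Ccl6 −0.22, Ccl7 0.18, Ccl8 0.35, Ccl12 −0.46 and Ccl24 −0.40, and 0 members were higher by more than 1.5-fold. TMM factors gave −0.51 for Ccl2, −0.32 for Ccl7 and −0.36 for Ccl12. A gate on markers in place of clusters gave −0.44 for Ccl2, −0.25 for Ccl7 and −0.74 for Ccl24. Equal weights over clusters gave −0.44 for Ccl2, 0.11 for Ccl6, −0.20 for Ccl7, 0.61 for Ccl8, −0.0029 for Ccl9, −0.29 for Ccl12 and −0.16 for Ccl24. Without the top 1% of cells Ccl8 had 0.78, Ccl12 −0.40 and Ccl24 −0.69. With doublets kept Ccl8 had 0.62 and Ccl12 −0.35, and with chemokine genes kept in the clustering Ccl24 had −0.43. The cause of these moves was not tested.

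Among values past 1.5-fold in a single class, these changed sign. With doublets kept, Ccl8 had −0.93 in all monocyte-like, −1.31 in Chil3-led and 0.37 in neutrophil-like cells, and Ccl12 had −2.11 in neutrophil-like cells. Without monocyte-like cells with at least 5 C1q UMIs, Ccl24 had 0.42 in all monocyte-like and 0.32 in Chil3-led cells, and Ccl8 −0.11 in Chil3-led cells. Without the top 1% of cells, Ccl24 had −0.10 in H2-Eb1-led and Ccl7 −1.10 in Hp-led cells, and at a clustering resolution of 1.0 Ccl24 had 0.34 in interferon-induced TAM-like cells. Shares of TAM-like cells without thinning were 74.6% and 71.5% for Ccl2, 50.4% and 47.4% for Ccl7, 58.3% and 58.1% for Ccl12, 23.2% and 32.0% for Ccl8, 49.6% and 57.0% for Ccl6, 68.8% and 74.1% for Ccl9 and 2.24% and 2.06% for Ccl24. No paired analysis was possible because each group is 1 library, and no replicate could be left out.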

Other observations

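A class that stayed unnamed for its few UMIs (led by Gzma, Gm26917 and Lars2, with 260 and 221 cells and medians of 1427.5 and 1572 UMIs) held 427 Ccl2 UMIs in the MWA and 260 in the MWA plus TIGIT library. A cluster led by Mcpt2, Cma1 and Tpsb2 was seen in the MWA plus TIGIT library alone, with 91 cells, a median of 614 UMIs and 61 Ccl2 UMIs. Type 1 dendritic cell-like cells (63 and 29) and mature dendritic cell-like cells (37 and 32) were too few to compare, and their Ccl2 was at 96.2 and 116 CPM and at 62.8 and 21.7 CPM.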
